A study of Homo sapiens with 12 samples.

Results

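Histone lysine modifying enzymes are the proteins that write and erase methyl and acetyl groups on lysines of histone tails. The members described here were chosen by name, with earlier results of these data known. The names were KMT, KDM, SETD, PRDM, HDAC, SIRT and KAT gene symbols, plus EZH1, EZH2, the NSD and EHMT genes, DOT1L, CREBBP and EP300. To be a member, a gene also had to carry an m6A region and an expression p-value. In all, 87 gene names matched the patterns, 82 of them had a p-value, and 74 also carried an m6A region, out of 12409 genes with both measures. The 74 members are 30 lysine methyltransferases and relatives, 17 demethylases, 10 acetyltransferases and 17 deacetylases. The 8 names with a p-value and no m6A region were EHMT2, NSD1, PRDM6, PRDM7, PRDM8, PRDM9, KDM4D and HDAC9, and 5 others were listed with a mean of 0. The symbol rule takes in genes that are not histone enzymes in the strict sense, since several PRDM proteins act as DNA-binding factors and several SETD proteins and sirtuins modify other proteins.

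Acetylation of histone lysines by acetyltransferases loosens chromatin and marks active genes, and deacetylases remove it as the catalytic subunits of corepressor complexes. Lysine methylation carries meaning by position: H3K4 methylation by the MLL and SET1 enzymes marks promoters and enhancers, H3K27 methylation by EZH2 or EZH1 marks Polycomb-silenced genes, H3K36 methylation by NSD and SETD2 enzymes covers transcribed bodies, and H3K9 methylation marks heterochromatin. Flavin-dependent and JmjC demethylases reverse these marks. In hepatoma cells EZH2 and the class I deacetylases are known as proliferation-linked repressors, and inhibitors of both families are used as drugs.

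The cells were HepG2, an established human liver tumour line, treated with toosendanin, a triterpenoid of Melia plants known for liver toxicity, or labelled as control. The labels name neither dose, time nor what the control cells received. N6-methyladenosine (m6A), an internal mark of mRNA, was read by sequencing RNA pulled down with an m6A antibody (IP) and RNA before the pull-down (input), with 3 toosendanin IP, 3 toosendanin input, 3 control IP and 3 control input libraries, 12 in all. The deposited m6A table holds counts that the authors summed over the libraries of a condition, so the variation among libraries cannot be read from those counts. In both files together the design answers how the RNA level and the m6A level of these enzymes differ between toosendanin-treated and control cells.

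Summed over all regions, the authors' counts came to 29094328 for toosendanin IP and 24253006 for toosendanin input, against 42316089 for control IP and 34131862 for control input. The liver identity of the line was visible, with mean normalized counts of 161730 for ALB and 158750 for AFP in the authors' deposited table, and of 10 such markers 4 were called higher and 2 lower. Of 4 endothelial markers 1 was at 0 (KDR), of 4 fibroblast markers 3 (COL1A1, COL1A2 and DCN), and of 5 blood markers 2 (PTPRC and CD3E). The fibroblast marker PDGFRB had a mean of 36.06 and was called lower, at -2.25 on the log2 scale, and VWF, PECAM1, CDH5 and CD14 had means of 13.15, 6.944, 0.830 and 15.91 in the authors' deposited table. LYZ and CD68, also blood markers, had means of 49191 and 1426 and log2 fold changes of -0.37 and 1.41 in the authors' deposited table. All 12 of the listed markers of cycling cells were lower after toosendanin according to the authors' deposited table, with a median log2 fold change of -1.46, so the enzymes below were measured in a population whose proliferation genes differed. The part of that difference in the results on enzymes was not tested.

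Toosendanin changed the RNA of 25 of the 74 enzymes, 18 downward and 7 upward, and most of the changes were small. EZH2, the Polycomb H3K27 methyltransferase, the acetyltransferases KAT2A and KAT14, the H3K36 methyltransferase NSD2 and the deacetylases HDAC2 and HDAC4 were among those that fell. SETD7, which methylates H3K4 and many other proteins, rose most by far, and the H3K27 demethylase KDM6B, the deacetylases HDAC11 and SIRT2 and the H3K4 methyltransferase KMT2C rose as well. Calls are those of the authors' deposited table, a DESeq2 comparison, at an adjusted p under 0.05. In it, 24.3% of the members were lower, beside 19.4% of the 12337 genes with an m6A region and an adjusted p and 15.7% of all 16552 genes with an adjusted p. Higher were 9.46% of the members in the same authors' deposited table, beside 18.5% of genes with an m6A region and 15.7% of all genes. The share of lower members was near the background and that of higher members below it, with no test of either difference. The median log2 fold change of the members was -0.10, beside -0.01 for all genes with an m6A region and an adjusted p, computed from the authors' deposited table.

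Size separates the members more than the count does. Only SETD7 passed a 2-fold change, and 15 of the 25 called members changed by less than 0.5 on the log2 scale in the authors' deposited table. All 74 members had an adjusted p. Their mean normalized counts ran from 29.2 for PRDM12 to 6385 for HDAC5 with a median of 1476 in the authors' deposited table, against a median of 426.4 for all genes with an adjusted p. A mean normalized count is not corrected for transcript length, so it shows how well a gene was counted and not which enzyme is more abundant. Of the 49 members not called, 35 had a 95% interval of the log2 fold change that lay within 0.5 of 0, so changes beyond that size lie outside their intervals. The other 14, which include EZH1, KMT2A, KAT2B, KAT5, KDM2B, HDAC10 and SIRT4, had intervals that reach further. In bulk RNA, fewer cells that express a gene and less RNA per cell cannot be told apart.

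**Figure D1:**
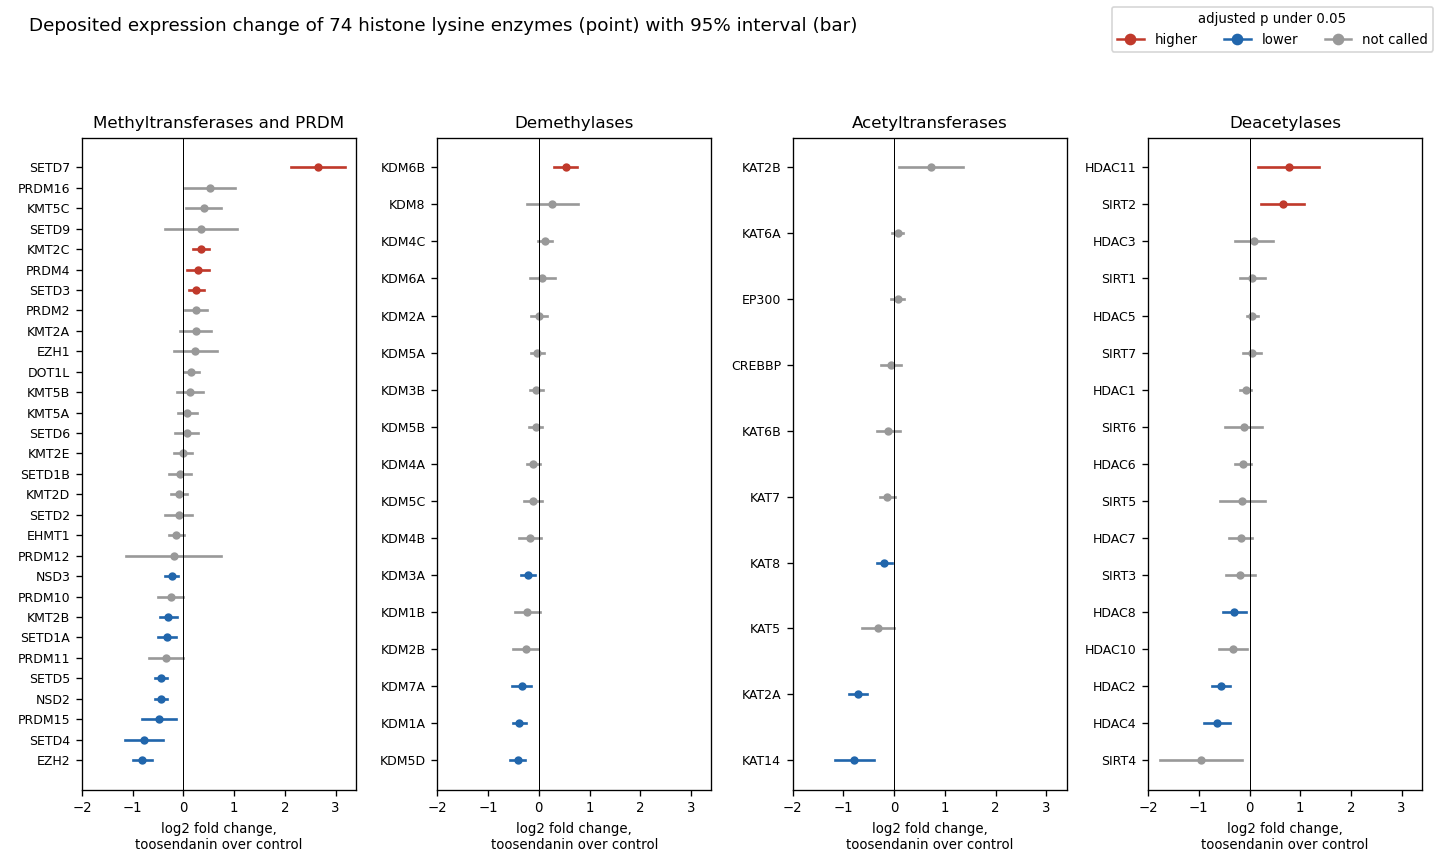
Log2 fold change (toosendanin over control, x axis) of each of the 74 enzymes with its 95% interval as a bar, from the authors' deposited table, in 4 panels by role; red marks enzymes called higher (7), blue lower (18) and grey not called (49). SETD7 at 2.66 stands far to the right of the other enzymes, and EZH2, KAT2A and KAT14 are called between -0.71 and -0.81.

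The H3K27 methyltransferases EZH2 and EZH1 differed in their change. EZH2, the catalytic subunit of Polycomb repressive complex 2 in dividing cells, had 714 summed input reads over its 4 m6A regions after toosendanin and 1747 in control, which is 29.4 against 51.2 CPM (input reads scaled to the total over all regions of that condition). Its level was thus lower in the toosendanin sum, and the authors' deposited table gave -0.81 ± 0.10 on the log2 scale with a DESeq2 adjusted p of 4.96e-16 (here and below, a value with ± is a log2 change, toosendanin over control, with its standard error). EZH1, the paralogue typical of resting cells, stood at 0.23 ± 0.22 with an adjusted p of 0.474 in the authors' deposited table, a DESeq2 result that did not pass. The difference between EZH2 and EZH1 was -1.05, with a 95% interval from -1.52 to -0.58. In the summed inputs EZH1 had 222 reads after toosendanin and 396 in control, a change of -0.34 ± 0.12 with Poisson error after centring, opposite in sign to the deposited value. In those sums the difference between both paralogues was -0.46 ± 0.14. Of 25 Polycomb genes listed as its partners, the authors' deposited table has 7 lower, 2 higher and 16 not called, with a median of -0.12. Of all genes 15.7% were called in each direction, and their median was -0.0002. SUZ12, a core subunit, stood at -0.30 ± 0.10 and the accessory subunit PHF19 at -1.25 ± 0.28 in the authors' deposited table. CBX2, a chromodomain protein of Polycomb repressive complex 1, stood at -1.27 ± 0.11 and PCGF2, a ring-finger subunit of that complex, at 0.74 ± 0.12 in the authors' deposited table.

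Promoters were searched for the consensus of E2F factors, which drive genes of the cell cycle and of which EZH2 is a known target. The windows run from 250 bases before to 50 after the RefSeq start on GRCh38.p14, and were found for 66 of the 74 members, the 8 others being SETD1B, HDAC5, DOT1L, PRDM16, SIRT7, KAT8, NSD3 and KAT6A. The E2F consensus was searched on both strands as the letters TTTCCCGC, TTTGGCGC, TTTGCCGC and TTTCGCGC, which do not overlap with another motif searched. It was present in 3.33% of 27305 promoter windows, in 2 of 16 windows of enzymes that fell (EZH2 and NSD2), in 0 of 7 of enzymes that rose and in 3 of 43 of enzymes not called (EZH1, KDM1B and SIRT6). Shown are 4 windows, chosen to set EZH2 beside its paralogue EZH1, NSD2 beside them, and SETD7, the enzyme with the largest change, with the matched letters in capitals. They lie at chr7:148884242-148884541 (EZH2, minus strand), chr17:42744991-42745290 (EZH1, minus strand), chr4:1871143-1871442 (NSD2, plus strand) and chr4:139556170-139556469 (SETD7, minus strand).
EZH2: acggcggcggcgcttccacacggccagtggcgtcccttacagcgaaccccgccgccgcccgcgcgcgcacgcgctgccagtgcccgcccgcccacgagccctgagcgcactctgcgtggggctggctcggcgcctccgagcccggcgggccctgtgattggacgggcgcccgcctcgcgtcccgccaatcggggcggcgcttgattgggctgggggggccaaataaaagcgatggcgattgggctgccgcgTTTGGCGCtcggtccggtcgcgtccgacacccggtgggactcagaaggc
EZH1: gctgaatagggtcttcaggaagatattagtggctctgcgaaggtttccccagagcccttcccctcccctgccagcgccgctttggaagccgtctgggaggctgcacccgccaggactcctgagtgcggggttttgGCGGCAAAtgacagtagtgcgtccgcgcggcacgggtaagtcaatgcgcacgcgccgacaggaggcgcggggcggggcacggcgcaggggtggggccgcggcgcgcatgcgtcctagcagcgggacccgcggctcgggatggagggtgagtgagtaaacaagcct
NSD2: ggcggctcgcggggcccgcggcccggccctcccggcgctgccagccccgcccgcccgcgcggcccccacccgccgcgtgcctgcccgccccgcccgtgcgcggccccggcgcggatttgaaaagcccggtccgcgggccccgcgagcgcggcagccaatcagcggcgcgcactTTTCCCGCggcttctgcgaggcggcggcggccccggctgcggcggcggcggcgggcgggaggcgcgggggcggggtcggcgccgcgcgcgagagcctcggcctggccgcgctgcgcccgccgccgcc
SETD7: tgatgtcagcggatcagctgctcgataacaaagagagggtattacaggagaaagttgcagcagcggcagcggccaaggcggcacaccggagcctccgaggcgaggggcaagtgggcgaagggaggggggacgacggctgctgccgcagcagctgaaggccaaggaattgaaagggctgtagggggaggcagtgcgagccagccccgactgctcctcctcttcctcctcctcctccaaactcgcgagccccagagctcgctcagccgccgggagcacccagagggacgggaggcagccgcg
The match in the EZH2 window begins at base 252 of 300, beside the start site, that of EZH1 at base 136 and that of NSD2 at base 174. No match says only that these letters are not in the SETD7 window, and a match is not evidence of binding.

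Among H3K36 methyltransferases, NSD2 and NSD3 fell and SETD2 did not pass. NSD2, which dimethylates H3K36, had 3380 summed input reads after toosendanin and 6415 in control, or 139.4 against 187.9 CPM, and stood at -0.44 ± 0.06 according to the authors' deposited table, with a DESeq2 adjusted p of 1e-13. NSD3, its relative, stood at -0.23 ± 0.06 with 0.000858, again a DESeq2 adjusted p of the authors' deposited table. NSD2 minus NSD3 was -0.21 (95% interval -0.37 to -0.05). SETD2, which trimethylates H3K36 behind elongating polymerase, stood at -0.10 ± 0.14 in the authors' deposited table. DOT1L, the H3K79 methyltransferase, stood at 0.16 ± 0.07 with a DESeq2 adjusted p of 0.0778 in the authors' deposited table. The H4K20 enzymes KMT5A at 0.08 ± 0.09, KMT5B at 0.13 ± 0.13 and KMT5C at 0.40 ± 0.18, and the H3K9 enzyme EHMT1 at -0.14 ± 0.07, were not called by the authors' deposited table. EHMT2, its paralogue, is not a member for lack of an m6A region. It was called lower there, at -0.37 ± 0.08 (DESeq2 adjusted p = 8.27e-06). EHMT2 minus EHMT1 was -0.23 (95% interval -0.44 to -0.02).

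Among H3K4 methyltransferases 2 fell and 1 rose, and paralogues differed. KMT2C, a monomethyltransferase of enhancers, had 3153 summed input reads after toosendanin and 3439 in control, or 130.0 against 100.8 CPM, and rose by 0.34 ± 0.08 in the authors' deposited table (DESeq2 adjusted p = 0.000257). Its paralogue KMT2D stood at -0.09 ± 0.08 according to the authors' deposited table, and the difference of KMT2D minus KMT2C was -0.43 (95% interval -0.65 to -0.21). KMT2B, which trimethylates promoters, fell by 0.30 ± 0.09 in the authors' deposited table (DESeq2 adjusted p = 0.00373), whereas its paralogue KMT2A, the gene of leukaemia rearrangements, stood at 0.24 ± 0.16. The difference of KMT2B minus KMT2A was -0.54 (95% interval -0.89 to -0.19) and only -0.21 ± 0.07 in the summed inputs. SETD1A, which carries out most H3K4 trimethylation with SETD1B, fell by 0.33 ± 0.09 according to the authors' deposited table, with a DESeq2 adjusted p of 0.00135. SETD1B stood at -0.07 ± 0.11 according to the authors' deposited table, and the interval of SETD1B minus SETD1A, from -0.02 to 0.54, holds 0. KMT2E, a reader-like relative with little enzymatic activity, stood at -0.003 ± 0.09 in the authors' deposited table. Of 13 genes listed for COMPASS, the complexes around these enzymes, the authors' deposited table has 5 lower and 1 higher, with a median of -0.13. Of all genes 15.7% were called in each direction. Among them stood PSIP1, the chromatin tether of KMT2A, at -1.07 ± 0.10, the SET1 subunit CXXC1 at -0.47 ± 0.07 and the core subunit ASH2L at -0.48 ± 0.10 in the authors' deposited table. There the core subunits WDR5 at -0.13, RBBP5 at -0.04 and DPY30 at 0.12 were not called. The SET1 subunit WDR82, at 0.17 ± 0.07, was the gene called higher.

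The other SETD genes held the strongest rise of all. SETD7 had 166 summed input reads after toosendanin and 52 in control, which is 6.85 against 1.52 CPM, and the authors' deposited table puts it 6.31-fold higher, at 2.66 ± 0.27 on the log2 scale (DESeq2 adjusted p = 4.57e-21). Its summed inputs changed by 2.16 ± 0.23 with Poisson error. With a mean normalized count of 132.5 in the authors' deposited table it was the most sparsely counted of the called enzymes. SETD5, a chromatin regulator tied to intellectual disability, had 4499 summed input reads after toosendanin and 8278 in control, and fell by 0.44 ± 0.06 in the authors' deposited table (DESeq2 adjusted p = 1.15e-11). SETD4, with 141 summed input reads after toosendanin and 334 in control, fell by 0.77 ± 0.19 in the authors' deposited table (DESeq2 adjusted p = 0.000362). SETD3, the actin histidine methyltransferase, rose by 0.25 ± 0.07 according to the authors' deposited table, with a DESeq2 adjusted p of 0.00268. SETD6, which methylates RELA, at 0.06 ± 0.12 and SETD9 at 0.35 ± 0.36 were not called by the authors' deposited table. Among 7 PRDM genes PRDM4 rose by 0.28 ± 0.11 (adjusted p = 0.0375) and PRDM15 fell by 0.49 ± 0.17 (adjusted p = 0.0184) in the DESeq2 results of the authors' deposited table, and the remaining 5 did not pass.

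Of 17 demethylases, the authors' deposited table has 4 lower (23.5%) and 1 higher (5.88%), and 12 did not pass. Among genes with an m6A region 19.4% were lower and 18.5% higher, and the difference was not tested. KDM1A (LSD1), the flavin-dependent eraser of H3K4 methylation in the CoREST complex, had 4076 summed input reads after toosendanin and 7553 in control, or 168.1 against 221.3 CPM. It fell by 0.38 ± 0.07 in the authors' deposited table (DESeq2 adjusted p = 2.5e-07). Its paralogue KDM1B stood at -0.23 ± 0.13 according to the authors' deposited table, and the interval of KDM1B minus KDM1A, from -0.13 to 0.44, holds 0. Partners of KDM1A in CoREST had mixed calls: RCOR2 and HMG20B had log2 changes of -1.03 ± 0.12 and -0.52 ± 0.07, PHF21A was called higher at 0.46, and RCOR1 at 0.16 and RCOR3 at -0.14 were not called by the authors' deposited table. KDM6B (JMJD3), the inducible eraser of H3K27 methylation, had 868 summed input reads after toosendanin and 807 in control, or 35.8 against 23.6 CPM, and rose by 0.53 ± 0.12 in the authors' deposited table (DESeq2 adjusted p = 5.24e-05). Its paralogue KDM6A stood at 0.07 ± 0.13 in the authors' deposited table, and KDM6B exceeded it by 0.47 (95% interval 0.13 to 0.80). Among erasers of H3K27 methylation KDM6B thus rose, KDM6A was not called, and KDM7A, described next, fell.

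The remaining called demethylases fell by less than 0.5 on the log2 scale. KDM7A, an eraser of H3K9 and H3K27 methylation, fell by 0.34 ± 0.09 and KDM3A, an eraser of H3K9 methylation induced by hypoxia, by 0.21 ± 0.07 in the authors' deposited table. KDM5D, an H3K4 demethylase, fell by 0.42 ± 0.08 in the authors' deposited table, against -0.11 ± 0.09 for KDM5C, its close relative in sequence. The sources used here do not say how reads that fit both genes were counted. KDM5A at -0.03 ± 0.06 and KDM5B at -0.06 ± 0.06 were not called according to the authors' deposited table, and their difference of -0.03 had an interval from -0.21 to 0.15. KDM2A at -0.001 ± 0.08, KDM3B at -0.05 ± 0.06 and KDM4A at -0.11 ± 0.07 were also not called in the authors' deposited table. KDM4C minus KDM4A was 0.22 (95% interval 0.03 to 0.41), but -0.02 ± 0.06 in the summed inputs, so that pair's order rests on the deposited values alone.

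**Figure D2:**
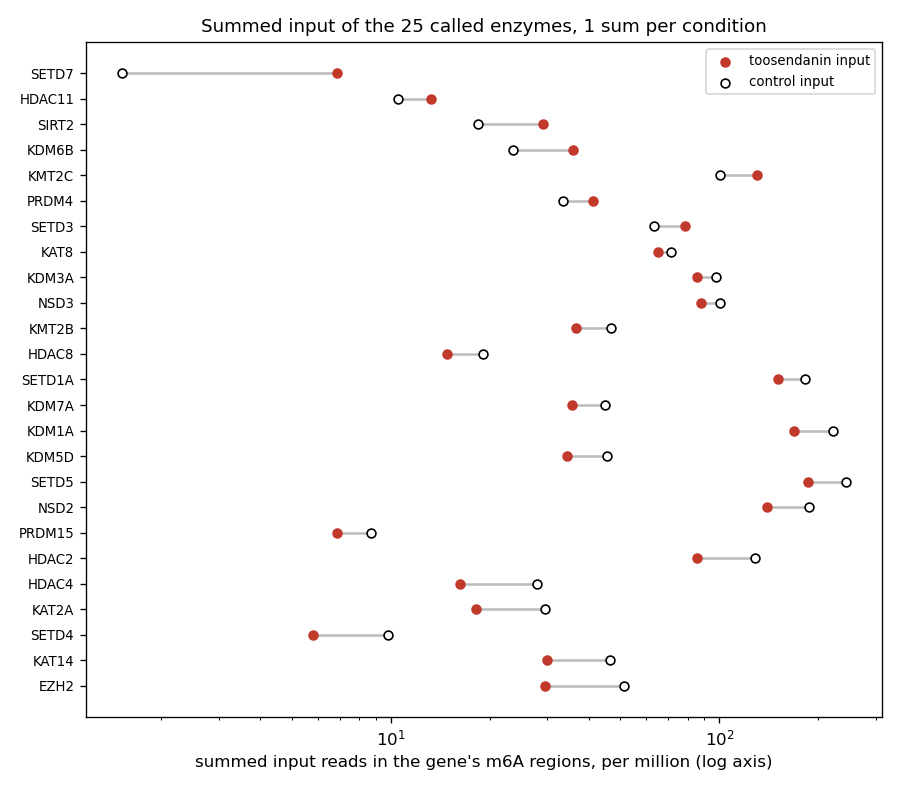
Input reads in the m6A regions of each of the 25 called enzymes as CPM of the summed input (x axis, log scale), with 1 sum per condition: filled points are toosendanin and open points control. The enzymes are ordered by the deposited log2 fold change, and SETD7 shows the widest gap, with 6.85 against 1.52 CPM, while all 18 enzymes called lower have the toosendanin point on the left.

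Among acetyltransferases the authors' deposited table has 3 of 10 lower and 0 higher, while at an unadjusted p under 0.05 the DESeq2 counts were 4 lower and 1 higher. Beside this, 19.4% of genes with an m6A region were called lower and 18.5% higher. With only 10 enzymes the difference was not tested. KAT2A (GCN5), the catalytic subunit of the SAGA and ATAC coactivators, had 442 summed input reads after toosendanin and 1008 in control, or 18.2 against 29.5 CPM. It fell by 0.71 ± 0.09 in the authors' deposited table (DESeq2 adjusted p = 6.84e-13). KAT2B (PCAF), which replaces it in the same complexes, stood at 0.73 ± 0.32 with a DESeq2 adjusted p of 0.0693 in the authors' deposited table, on 81 summed input reads after toosendanin and 67 in control. The difference of KAT2B minus KAT2A was 1.44 (95% interval 0.78 to 2.10), the largest difference among the 20 pairs with both genes as members, and 1.46 ± 0.25 in the summed inputs. KAT14, a subunit of ATAC, fell by 0.78 ± 0.20 in the authors' deposited table (DESeq2 adjusted p = 0.000457), with 727 summed input reads after toosendanin and 1590 in control. Its locus overlaps PET117, and 1 region that carries both names was not counted for it. KAT8, the H4K16 acetyltransferase, fell by 0.19 ± 0.07 according to the authors' deposited table, with a DESeq2 adjusted p of 0.0258.

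The widely used coactivators CREBBP and EP300 did not pass, with deposited values of -0.07 ± 0.10 and 0.07 ± 0.06 in the authors' deposited table. CREBBP had 159.9 CPM of input after toosendanin and 165.0 in control. EP300 had 180.5 CPM after toosendanin and 173.6 in control. The MYST enzymes KAT6A at 0.07 ± 0.06, KAT6B at -0.12 ± 0.12, KAT7 at -0.14 ± 0.08 and KAT5 at -0.32 ± 0.16 were not called by the authors' deposited table. Of 39 subunits of acetyltransferase complexes the authors' deposited table has 9 lower and 4 higher, with a median of -0.02, including the bromodomain subunit BRD8 of the KAT5 complex at -0.84 ± 0.09. ING5 and MEAF6, subunits of MYST complexes, had log2 changes of -0.32 ± 0.08 and 0.27 ± 0.07 in the authors' deposited table. Of 24 readers of these marks the authors' deposited table has 11 lower and 1 higher, with a median log2 fold change of -0.22, where 15.7% of all genes were called in each direction and their median was -0.0002. ATAD2, a bromodomain protein linked to E2F, stood at -1.54 ± 0.06, UHRF1, a reader of H3K9 methylation in replicating cells, at -1.61 ± 0.11, and BRD2 at -0.50 ± 0.06 in the authors' deposited table. There ZMYND8 stood at -0.62 ± 0.06, and TRIM24, at 0.61 ± 0.10, was the reader called higher.

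Of the 17 deacetylases, the authors' deposited table lists 3 as lower (17.6%) and 2 as higher (11.8%). The shares among genes with an m6A region were 19.4% lower and 18.5% higher, with no test of the difference. HDAC2, a class I enzyme of the NuRD, Sin3 and CoREST complexes, had 2075 summed input reads after toosendanin and 4383 in control, or 85.6 against 128.4 CPM, and fell by 0.56 ± 0.09 in the authors' deposited table (DESeq2 adjusted p = 1.68e-08). Its partner and close paralogue HDAC1 stood at -0.08 ± 0.06 according to the authors' deposited table, with 3848 summed input reads after toosendanin and 5731 in control. The difference of HDAC2 minus HDAC1 was -0.48 (95% interval -0.69 to -0.26), and -0.50 ± 0.05 in the summed inputs. HDAC8, also of class I, fell by 0.30 ± 0.12 in the authors' deposited table (DESeq2 adjusted p = 0.0369), and HDAC3, the enzyme of the NCoR complex, stood at 0.09 ± 0.19. HDAC4, a class IIa enzyme that shuttles between nucleus and cytoplasm, had 393 summed input reads after toosendanin and 949 in control, or 16.2 against 27.8 CPM. It fell by 0.64 ± 0.13 in the authors' deposited table (DESeq2 adjusted p = 4.88e-06), while its paralogue HDAC5 stood at 0.05 ± 0.06 on 3787 summed input reads after toosendanin and 5068 in control. HDAC5 minus HDAC4 was 0.70 (95% interval 0.42 to 0.98), and 0.85 ± 0.09 in the summed inputs.

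HDAC11, the single class IV enzyme and a fatty deacylase, rose by 0.77 ± 0.31 in the authors' deposited table (DESeq2 adjusted p = 0.0384), with 321 summed input reads after toosendanin and 360 in control, or 13.2 against 10.55 CPM. The summed inputs gave a smaller change of 0.33 ± 0.11 after centring. SIRT2, a mostly cytoplasmic tubulin deacetylase, had 705 summed input reads after toosendanin and 628 in control, or 29.1 against 18.4 CPM, and rose by 0.65 ± 0.21 in the authors' deposited table (DESeq2 adjusted p = 0.00955). Of the other sirtuins none passed, and SIRT1, the nuclear deacetylase of p53, stood at 0.06 ± 0.12 there. SIRT4 at -0.96 ± 0.42 rested on a mean normalized count of 52.7 in the authors' deposited table and had an adjusted p of 0.0644 in the DESeq2 fit. Of 25 subunits of deacetylase complexes the authors' deposited table has 9 lower and 4 higher, with a median of -0.05. Of all genes 15.7% were called in each direction. MBD3 of NuRD had a log2 change of -0.60 ± 0.10 and SUDS3 of Sin3 one of -0.36 ± 0.07 in the authors' deposited table. MTA3 of NuRD, at 0.29 ± 0.09, was called higher there.

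Of 24 paralogue pairs listed, 20 had both genes among the members, and for 9 the 95% interval of the difference left out 0. These intervals treat the errors of both genes as independent, use a normal approximation, are not adjusted over the pairs and cover the spread as the authors' fit gives it. In the summed inputs 8 of the 9 differences had the same sign, the exception being KDM4C and KDM4A. For the other 11 pairs the interval held 0, among them EP300 minus CREBBP at 0.13 (95% interval -0.10 to 0.37) and KAT6B minus KAT6A at -0.19 (95% interval -0.44 to 0.06), which does not show that these paralogues responded alike. Of 19 lysine enzymes outside the symbol rule, the authors' deposited table has 6 lower and 3 higher, with a median of -0.12, beside the 15.7% of all genes called in each direction. The H3K9 methyltransferase SUV39H1 stood at -1.20 ± 0.23 and the cytoplasmic histone acetyltransferase HAT1 at -0.46 ± 0.08, against the coactivator NCOA1 at 0.50 ± 0.08, all by the authors' deposited table.

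**Figure D3:**
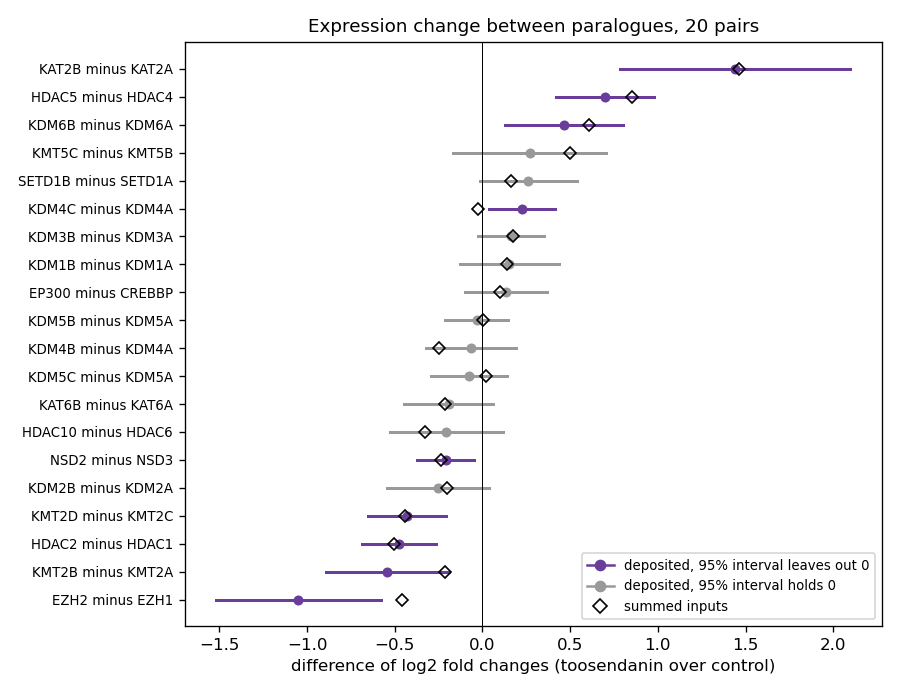
Difference between the log2 fold changes of both genes of 20 paralogue pairs (x axis, toosendanin over control), with 95% intervals as bars; purple marks the 9 pairs whose interval leaves out 0, grey the 11 whose interval holds 0, and open diamonds the same difference in summed inputs. KAT2B minus KAT2A at 1.44 and EZH2 minus EZH1 at -1.05 are the ends, and the diamond of the EZH pair sits at -0.46.

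All 25 called enzymes had the same direction in their summed inputs as in the authors' deposited table, 7 higher and 18 lower. Across the 74 members the Pearson r of both measures was 0.94, as a description. Both measures may rest on the same input libraries, so this is a check of the direction and not independent evidence. Of the 25, 8 have a gene span that overlaps another measured gene in RefSeq, among them NSD3 with DDHD2, SETD3 with CCNK, HDAC2 with HDAC2-AS2 and HDAC4 with HDAC4-AS1. The libraries were stranded per the labels, but whether the counting used strand is not stated there, so reads of the enzyme and of such a neighbour may not have been told apart.

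The m6A of the enzymes was read in 459 regions, with a median of 5 regions per enzyme against 3 over all gene labels, and KMT2C carried 23, the most. Enrichment below is the IP share of a region over its input share, each of the total over all regions. The enzymes were not strongly enriched: 4.79% of their regions reached 2-fold enrichment in control, against 9.89% of all regions, and the median control enrichment was 0.931 against 0.974. The summed enrichment of KDM6B was the highest among enzymes called in expression, at 2.06 after toosendanin and 2.22 in control, and that of KAT2A the lowest, at 0.460 after toosendanin and 0.447 in control. In control the most enriched single region belonged to KMT2E, with 2.27 after toosendanin and 2.87 in control, among regions with at least 30 control input reads.

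As deposited, every m6A call on an enzyme was downward, but the direction depended on scaling. Of 238 regions with an FDR, 15 regions of 12 enzymes were lower and 0 were higher in the authors' deposited table at an FDR under 0.05, and at an unadjusted p under 0.05 there were 34 lower and 8 higher. The share of lower regions was 6.3%, beside 6.24% of all 24688 regions, and 2.71% of all regions were called higher. The deposited m6A p-values hold the counting error of the summed counts only, with no spread between libraries: in 100% of 196 regions of enzymes the implied error was within 1% of the Poisson error. The deposited log2 changes were lower than those of the raw summed counts, by 0.0037 to 0.0953 for regions of enzymes. Centred on the median of regions, 2 regions of enzymes were higher and 6 lower, beside 4.74% and 3.56% of all regions. Scaled to the totals, 7 were higher and 3 lower, beside 7.33% and 2.29% of all regions. With the error widened by 1.53 so that the middle of all regions had the spread of a standard normal, 0 regions of enzymes were called in either direction. Few of all 24688 regions were called at that setting, 141 higher and 282 lower.

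The 3 regions that stayed lower under all 3 scalings belonged to CREBBP, KMT2E and SETD6. The CREBBP region had 283 IP and 255 input reads after toosendanin, against 502 IP and 295 input reads in control, an enrichment of 0.925 after toosendanin and 1.37 in control. It stood at -0.71 ± 0.16 with an FDR of 0.000518 in the authors' deposited table (± is Poisson error here), and at -0.57 scaled to totals. The KMT2E region had 971 IP and 357 input reads after toosendanin, against 1471 IP and 413 input reads in control, and stood at -0.43 ± 0.12 with an FDR of 0.00771 in the authors' deposited table. The SETD6 region had 415 IP and 492 input reads after toosendanin, against 725 IP and 627 input reads in control. It stood at -0.48 ± 0.12 with an FDR of 0.00292 in the authors' deposited table. Its enrichment was 0.703 after toosendanin and 0.933 in control, so it was not enriched in either condition. The gene spans of KMT2E and SETD6 overlap those of SRPK2 and CNOT1, so reads of such a neighbour may not have been told apart. None of these 3 enzymes was called in expression, with CREBBP, KMT2E and SETD6 at -0.07, -0.003 and 0.06 in the authors' deposited table.

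A further 3 regions were lower as deposited and when centred, of KDM3B at -0.29 ± 0.08, SETD3 at -0.24 ± 0.07 and SETD5 at -0.47 ± 0.14 in the authors' deposited table. The region of EZH2 at -0.91 ± 0.32 was the largest of the called changes and rested on 50 IP and 52 input reads after toosendanin, against 285 IP and 168 input reads in control, with an FDR of 0.0486 in the authors' deposited table. It was not called when centred. Regions of HDAC5 at -0.81 ± 0.26, KMT5B at -0.41 ± 0.14, NSD3 at -0.24 ± 0.08, KDM5A at -0.23 ± 0.08 and EP300 at -0.22 ± 0.08 in the authors' deposited table were likewise not called when centred, nor were 2 more regions of CREBBP and a second region of SETD5. Regions called higher once scaled to totals belonged to DOT1L (2 regions), EP300, HDAC5, KDM1A, KDM5A and NSD2, of which those of DOT1L at 0.37 and KDM1A at 0.21 were called higher when centred as well. EP300, HDAC5 and KDM5A thus had 1 region called lower as deposited and another called higher when scaled.

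**Figure D4:**
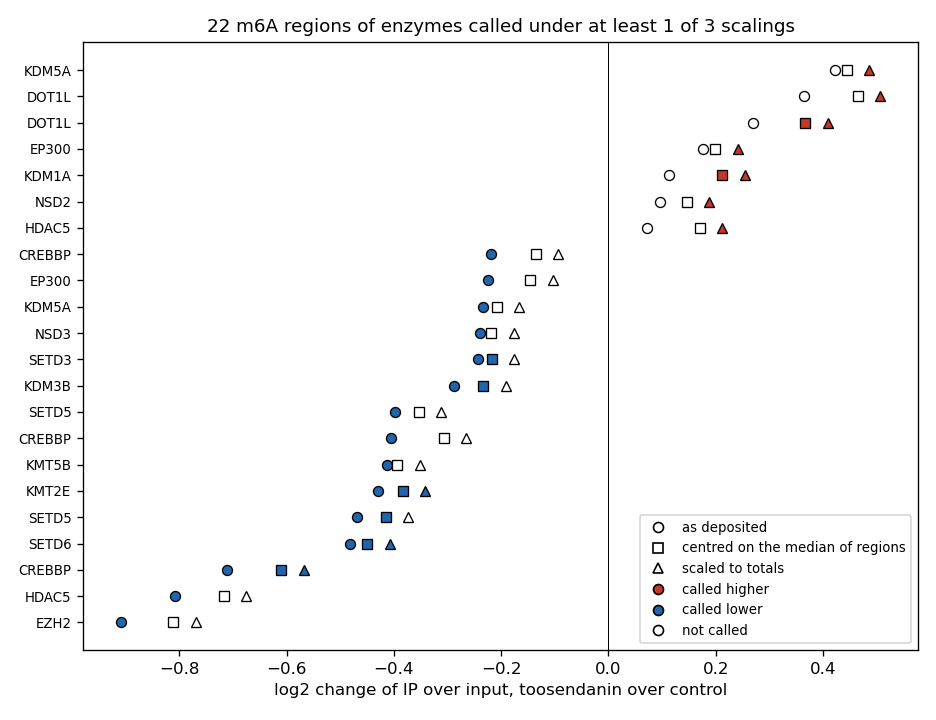
Log2 change of IP over input (x axis, toosendanin over control) for the 22 regions of enzymes called under at least 1 of 3 scalings, 1 row per region named by its gene; circles are values as deposited, squares centred on the median of regions and triangles scaled to totals, filled blue where called lower, red where called higher. Each region moves to the right from circle to triangle, and 15 circles are blue while 3 triangles are.

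Calls in RNA level and in m6A were set side by side. Of 18 enzymes that fell, 3 (EZH2, NSD3 and SETD5) had a region lower in the authors' deposited table. Of 7 that rose 1 (SETD3) did, and of 49 not called 8 did. The difference between these shares was not tested. Only 63 of the 74 enzymes had a region with an FDR, and the others could not be called lower. Those without such a region include SETD7 among enzymes that rose, and SETD4 and PRDM15 among those that fell. The share of all genes with a lower region was not counted, so the overlap is not read as a result about the enzymes. Enzymes had a median of 5 regions, against 3 over all gene labels. Per region, 6.3% of those of enzymes with an FDR were lower, beside 6.24% of all. Per gene, summed over its regions and scaled to totals, 27 of 66 enzymes with at least 100 input reads per condition had a lower enrichment after toosendanin, 40.9% against 41.4% of 9868 genes. Their median change was 0.04, beside 0.03 for those genes, a difference that was not tested.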

How the data were processed

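Per the labels, 12 HepG2 libraries were sequenced from a stranded mRNA kit with unique molecular identifiers. The submitters' processing notes name HISAT2, StringTie and DESeq with no version. The m6A caller, counting settings, genome build and annotation remain not given in the sources used here. Per the file headers, the expression table holds the authors' DESeq2 columns: a mean normalized count (a signal deposited by the authors), a Wald statistic (a score deposited by the authors), the log2 fold change and its error, and the deposited p-value with its adjusted p. The m6A table holds counts deposited as sums over libraries, with a log2 fold change, p-value and FDR by the authors. No values per library were used, so nothing was refitted: the design had foreseen edgeR only if counts per library were in the files. Nothing in the labels says whether libraries came from separate cultures, so p-values may measure technical spread. Which libraries entered each comparison was not stated either. Precision of m6A values is counting error only.

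The members and lists were chosen with earlier results of these data known. Named were all called members, the best counted of each class, both genes of pairs whose interval left out 0, all called m6A regions and up to 4 genes per partner list; further members and partner genes were named after their values were seen. Summed inputs were compared on the log2 scale with 0.5 added, centred on the median over genes. The recomputation of the m6A test was tested on simulated data with Poisson error only and log2 changes of 1 planted in 200 of 24688 regions. Of those changes 79.5% were recovered, and 10 unchanged regions were called. The simulated counts held no spread between libraries, and the planted changes exceeded every called change in a region of an enzyme. This checks the computation and not the error of the m6A calls. Alternatives were other thresholds, adjustments, coverage minima, scalings and errors. Scripts used pandas 2.3.3, numpy 2.4.6, scipy 1.17.1 and matplotlib 3.10.9 under Python 3.11.15.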

Additional observations from a re-analysis of the deposited data

How the results depend on the processing

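No paired analysis was possible because the files used here hold sums and the authors' comparison, with no values per library; for the same reason leaving out each replicate and edgeR on counts were not run. The expression counts of 7 higher and 18 lower enzymes were unchanged when adjusted over all p-values, within the upper 50% of means, or centred. Centring moved the log2 fold changes by only 0.0027, so it could hardly change a call. Within the upper 50% of means, SETD4 and SETD7 were not tested and HDAC10 and PRDM2 took their place, while the other 23 were shared. An adjusted p under 0.01 kept 5 higher and 14 lower. At least 2-fold left 1 higher and 0 lower. For m6A, the deposited 0 higher and 15 lower regions became 5 lower at an FDR under 0.01, 14 lower with at least 50 input counts, 1 higher and 9 lower with at least 10, 2 higher and 6 lower when centred, 7 higher and 3 lower when scaled to totals, and 0 lower with a widened error. With regions of 1 gene only there were 15 lower, but regions of enzymes all carry 1 gene name, so that setting could not remove any of them. Among regions enriched in control 12 were lower. Paralogue pairs with an interval that left out 0 numbered 9 as deposited and 15 in summed inputs, whose Poisson error leaves out the spread between libraries. The cause of the scaling differences was not tested. Depth limits the 8 enzymes with under 100 summed input reads in a condition, SETD7 and KAT2B among them.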
